A study of Mus musculus with 6 samples.

Results

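The genes described here were silent or nearly so in control C3H10T1/2 cells and carried signal after Ring1a and Ring1b were depleted. A gene was taken when its normalized signal was below 5 in all 3 control libraries and above 10 in knockdown replicates 1 and 3, and 48 of the 20325 genes in the deposited table were kept. Both limits together were met by 59 rows, from which 11 were left out by name. The names to be left out were those of Hox and forkhead genes, the homeobox gene Lbx1 and a few receptor and neuronal genes. The signal is the authors' estimated read count per gene after median normalization. Because the values of these 5 libraries chose the genes, the difference between them is given as a description and was not tested, while knockdown replicate 2 had no part in the choice.

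C3H10T1/2 is a multipotent mesenchymal line from C3H mouse embryos, used here as parental cells at passage 10 to 15. Small interfering RNA of scrambled sequence went into the 3 control samples, and Ring1a and Ring1b were targeted jointly in the 3 knockdown samples. The knockdown was transient and made with interfering RNA, with no single-gene arm, and Ring1a and Ring1b cannot be told apart as the source of a change. Replicates are numbered but not said to be separate cultures, so the p-values describe how far these particular libraries scatter, which may be technical scatter. In bulk RNA, a few cells with much of a transcript and many cells with little cannot be told apart.

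RING1A and RING1B are the alternative ubiquitin ligases of Polycomb repressive complex 1, which places ubiquitin on histone H2A. The complex works with Polycomb repressive complex 2, which methylates histone H3, and together they keep many lineage genes silent in cells that do not need them. In mesenchymal progenitors, such genes include those of neurons, epithelia and other lineages. Their promoters are often rich in the dinucleotide CpG, to which some forms of the complex are recruited.

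Rnf2, which encodes RING1B, stood at 815, 829 and 799 in control replicates 1, 2 and 3 and at 129, 76.5 and 152 in the knockdowns. Its difference passed the test over all genes (limma adjusted p = 0.00946 for a log2 fold change of −2.82 with SE 0.28; all 3 knockdowns were lower). Without control replicate 1, 2 or 3 or knockdown replicate 1 it did not pass (limma adjusted p 0.0646 to 0.0852). Ring1, which encodes RING1A, stood at 336, 386 and 374 and at 162, 268 and 186, lower in all 3 knockdowns without passing (limma adjusted p = 0.104 for a log2 fold change of −0.86 with SE 0.23). Ring1 passed under total scaling (limma adjusted p = 0.044) and without knockdown replicate 2 (limma adjusted p = 3.86e-06). All 14 mesenchymal markers examined were above the silent limit in every control, from fibronectin (Fn1) and the collagens to Twist1. Estimated depth before scaling was 51.8, 5.45 and 15.1 M reads (M, 1e6) in control replicates 1, 2 and 3 and 23.2, 4.58 and 18.5 M in the knockdowns.

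Depth sets what silent means in each library. A single read was worth 0.259 in control replicate 1, 2.51 in control replicate 2 and 0.903 in control replicate 3. The limit of 5 therefore allowed 19.3 reads in the first control but 1 read in the second, where 32 of the 48 genes were at 0 and the other 16 at 1 read. In knockdown replicates 1 and 3, where 1 read was worth 0.565 and 0.711, the limit of 10 stood for 17.7 and 14.1 reads. In knockdown replicate 2 a read was worth 4.25, and a floor of 3 reads corresponded to 12.8, so single genes are least certain there. These floors cover counting error only.

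Of the 7409 genes below 5 in all controls, 0.796% met the knockdown limit, counting also the 11 left out by name. The reverse pattern, above 10 in all controls and below 5 in knockdown replicates 1 and 3, was met by 23 of 11613 genes, or 0.198%. These shares are over unlike sets of genes, silent ones and all those above 10, so their sizes are not compared. The 48 genes remained weakly expressed. Their median signal was 16.7 in knockdown replicate 1 and 14.2 in knockdown replicate 3, against 2.38, 0 and 1.81 in control replicates 1, 2 and 3. Only 7 of them reached a mean of 30 or more over knockdown replicates 1 and 3, and 32 stayed below 20. The map of signal by library shows the dark control columns, the even signal of knockdown replicates 1 and 3, and the scattered values of knockdown replicate 2.

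**Figure D1:**
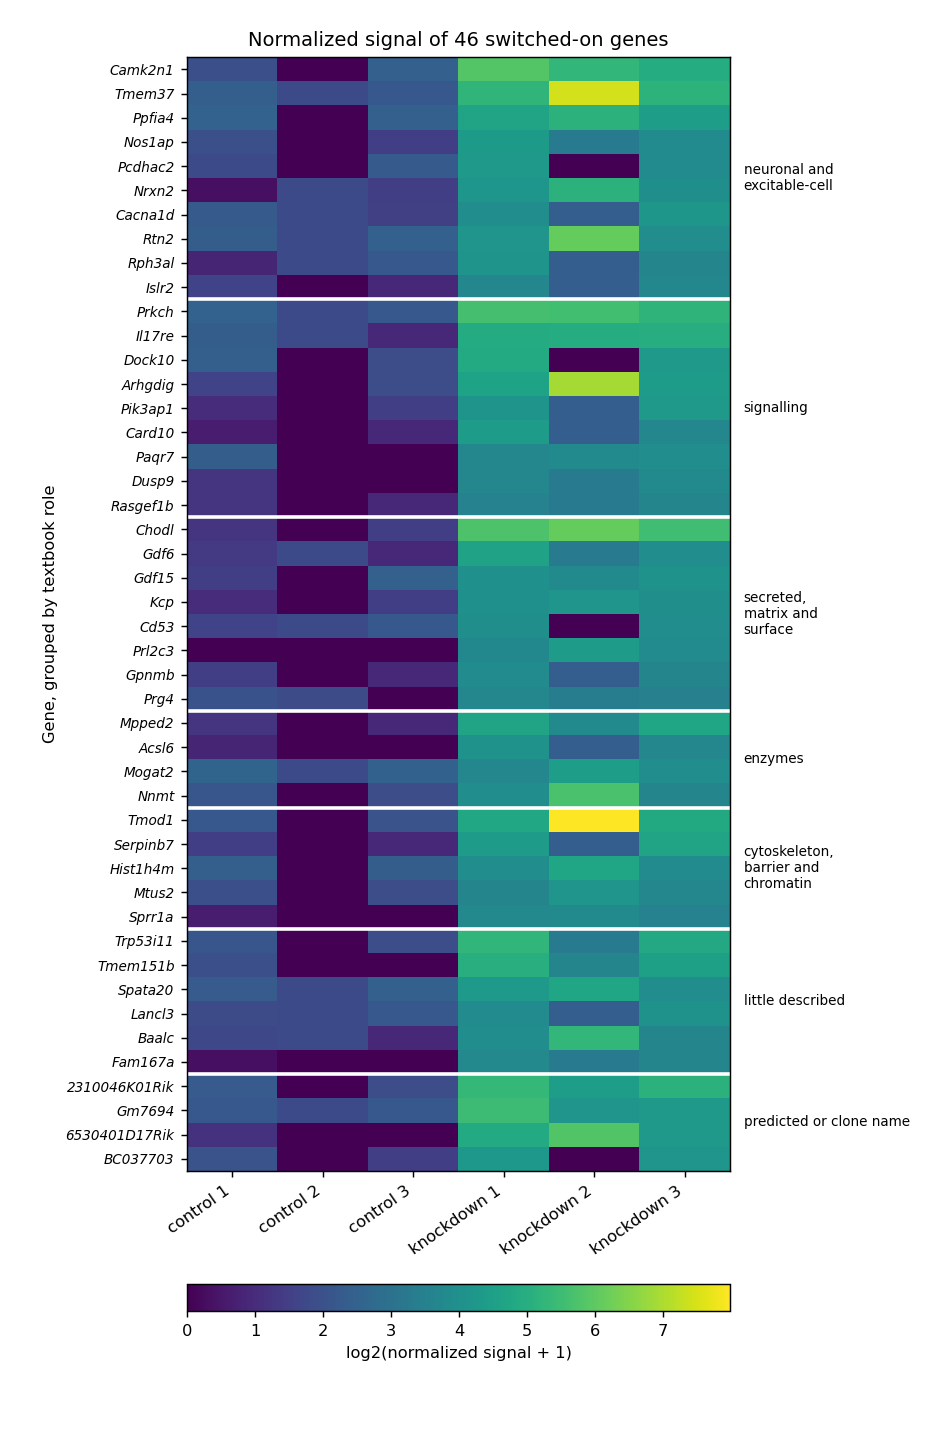
Normalized signal of 46 of the 48 genes (rows, grouped by textbook role) in the 6 libraries (columns), coloured as log2(signal + 1). Control columns were below 5 and knockdown 1 and 3 above 10 by the choice of genes; knockdown 2, which was not used, ranged from 0 (4 genes) to 253 (Tmod1).

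Levels were compared between genes per kilobase of transcript, for the 47 genes with a protein-coding transcript in GENCODE M21. Among 19966 genes with a length, the median percentile of signal per kilobase was 33.7, 16.9 and 33.9 in the 3 controls, where many genes tie at 0. It was 43.3, 40.8 and 42.3 in knockdown replicates 1, 2 and 3. Averaged over knockdown replicates 1 and 3, percentiles ran from 36.4 for Cacna1d to 49.4 for Hist1h4m. None of the 47 genes reached the middle of the table in that average. On this scale the highest levels among genes without near-identical copies were those of Tmem37 and Chodl, at 27.3 and 27.2 per kilobase, and the lowest was that of Cacna1d, at 1.99.

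**Figure D2:**
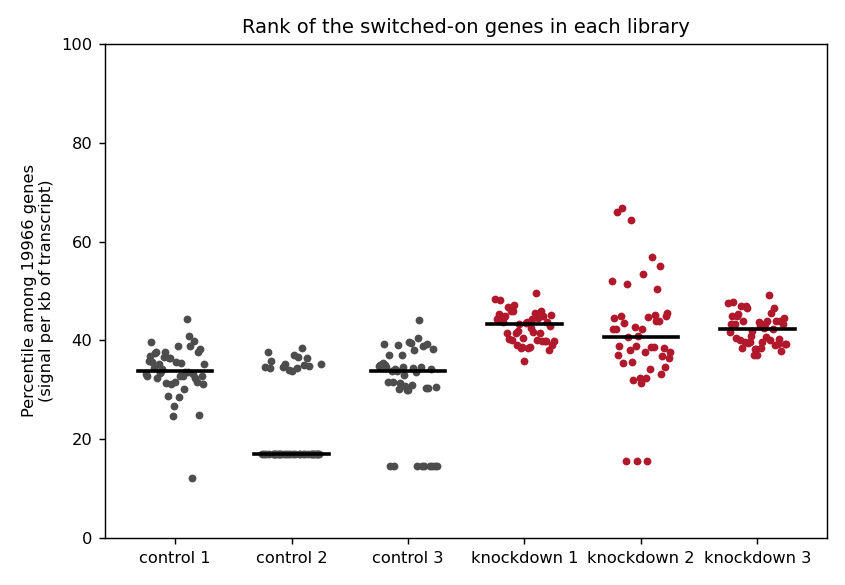
Percentile of signal per kilobase of transcript, among 19966 genes, for 47 of the switched-on genes (points) in each library, with the median as a bar. The medians were 33.7, 16.9 and 33.9 in the controls, where genes at 0 share a rank, and 43.3, 40.8 and 42.3 in knockdown 1, 2 and 3.

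Knockdown replicate 2 gave a reading of the same genes outside the choice. In 44 of the 48 it exceeded the highest control, so that all 3 knockdowns lay above all 3 controls. The same held in that library for 35.2% of all genes, and for 17% of the 7350 silent genes that did not meet the limits. All 3 knockdowns exceeded all 3 controls in 14.5% of all genes, a share from which nothing is read here, since the choice already placed knockdown replicates 1 and 3 above every control. Since 1 read in this library already stands above many of the controls, the count at 3 reads or more is stricter, and 27 of the 48 genes reached it, against 2.61% of the other silent genes. A nearer comparison is the 69 silent genes whose knockdown replicates 1 and 3 both lay between 5 and 10. Of these, 48 exceeded the highest control in knockdown replicate 2 and 21 had at least 3 reads there.

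At the mean signal of knockdown replicates 1 and 3, the median gene was expected to give 3.79 reads in knockdown replicate 2, and 38 genes were expected to give 3 or more. The genes listed at 0 there were Dock10, Pcdhac2, Cd53 and a gene with a clone name. Another 9 genes had a single read, namely Serpinb7, Pik3ap1, Card10, Cacna1d, Lancl3, Acsl6, Rph3al, Gpnmb and Islr2. At the other end, 8 genes stood at over 2 times the mean of knockdown replicates 1 and 3, and 16 stood at under 0.5 times that mean. The order of the genes was alike in knockdown replicates 1 and 3 (Spearman 0.793 across the 48 genes, both libraries used in the choice) and much less so between their mean and knockdown replicate 2 (Spearman 0.287). These correlations are across genes, which are not independent replicates.

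**Figure D3:**
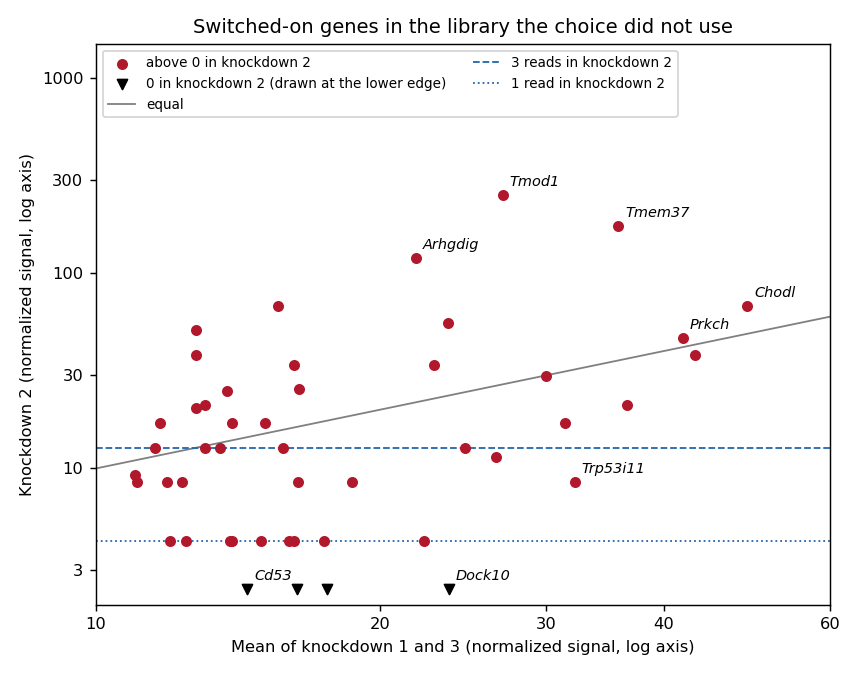
Signal in knockdown 2 against the mean of knockdown 1 and 3 for the 48 genes (points, both axes logarithmic), with lines for equality and for 1 and 3 reads in knockdown 2. In 27 genes knockdown 2 held at least 3 reads, 9 lay at 1 read and 4 at 0 (triangles), while Tmod1, Tmem37 and Arhgdig lay far above the line of equality.

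Knockdown replicate 2 also differed from the other knockdowns by transcript length. Across the 47 genes with a length, the Spearman correlation of its log2 difference from them with length was −0.371, and across all genes tested it was −0.487. The 24 genes at or under the median length of 2397 nt had a median ratio of knockdown replicate 2 to the mean of the others of 1.16, and the 23 longer genes a median ratio of 0.689. It exceeded the highest control in 23 of the shorter and 21 of the longer genes. Dock10 and Pcdhac2, both at 0 there, have median transcripts of 6025 and 5888 nt, while Cd53 has 1742 nt. The part of length in the single values was not tested.

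**Figure D4:**
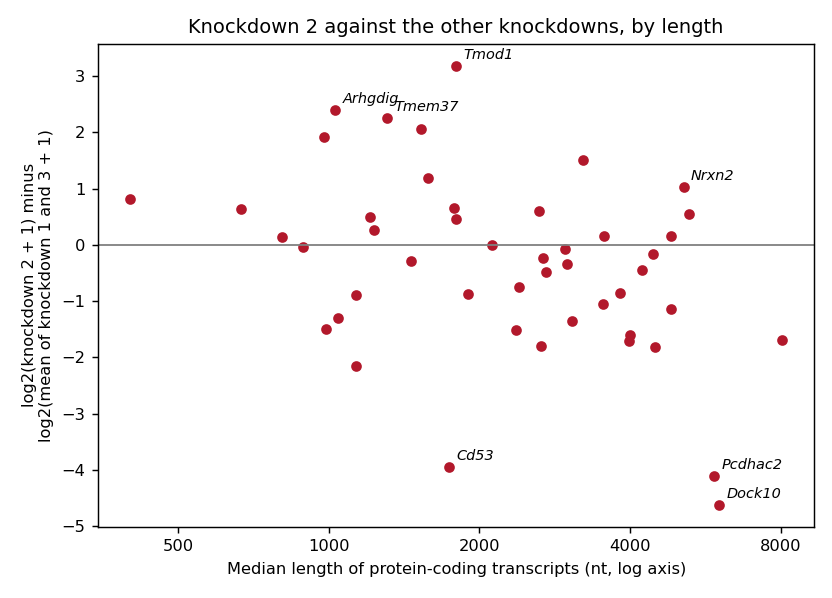
Difference between knockdown 2 and the mean of knockdown 1 and 3, on the log2(signal + 1) scale, against median length of protein-coding transcripts (logarithmic axis) for 47 genes. Arhgdig, Tmem37 and Tmod1, all shorter than the median of 2397 nt, lay highest, and Dock10 and Pcdhac2, with long transcripts, lay lowest.

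Genes of neurons and other excitable cells made up the largest group by role, with 12 members. Roles were assigned from gene symbols, and the share of such genes among all genes was not counted, so nothing is read from the size of a group. Camk2n1, which encodes an inhibitor of calcium/calmodulin-dependent kinase II, stood at 2.85, 0 and 4.52 in control replicates 1, 2 and 3 and at 56.5, 38.3 and 29.8 in the knockdowns. Tmem37, which encodes a protein related to calcium channel gamma subunits, stood at 4.40, 2.51 and 3.61 and at 36.8, 174 and 34.8. By the choice, the mean of knockdown replicates 1 and 3 lay above the controls, by 17.6-fold and 10.2-fold. Tmem37 in knockdown replicate 2 was 4.87 times that mean.

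Several of these genes act at the synapse or in secretion. Ppfia4, which encodes the presynaptic scaffold liprin-alpha 4, stood at 4.66, 0 and 4.52 in the controls, against 24.3, 34.0 and 21.3 in the knockdowns. Nrxn2, for the presynaptic adhesion protein neurexin 2, stood at 0.259, 2.51 and 1.81 and at 17.5, 34.0 and 14.9. Knockdown replicate 2, the only knockdown left free by the choice, exceeded every control in both genes, as in 35.2% of all genes. Nos1ap, for an adaptor of neuronal nitric oxide synthase, stood at 2.85, 0 and 1.81 and at 19.2, 8.50 and 13.5. Rph3al, for a Rab effector of regulated exocytosis, stood at 0.777, 2.51 and 3.61 and at 16.4, 4.25 and 11.4, with 1 read in knockdown replicate 2. Nos1ap shares exon sequence on the same strand with a predicted gene that is also among the 48, so reads of the pair could be divided between them.

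Channel and other membrane proteins were also in the group. Cacna1d, for the pore of an L-type calcium channel, stood at 3.81, 2.51 and 1.85 in the controls, against 14.1, 4.25 and 17.9 in the knockdowns. Rtn2, for a reticulon that shapes endoplasmic reticulum, stood at 4.14, 2.51 and 4.52 and at 16.96, 68.0 and 14.2. The exons of Cacna1d overlap Chdh on the opposite strand, which was lower in all 3 knockdowns, between 4.25 and 7.70, than in the controls, between 20.05 and 22.5. Knockdown replicate 2 was thus highest of all in Rtn2 and lowest of the knockdowns in Cacna1d. Islr2, a leucine-rich membrane protein of axons, stood at 2.07, 0 and 0.903 and at 11.9, 4.25 and 12.1. Its exons overlap those of Islr on the same strand in GENCODE M21, and Islr stood between 2655 and 3353 in every library, and the part of Islr reads in its values was not tested. The protocadherin gene Pcdhac2 stood at 2.44, 0 and 3.75 and at 19.2, 0 and 13.5, and shares its last exons with the other protocadherin alpha genes.

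Signalling genes formed a group of 9. Prkch, which encodes protein kinase C eta, stood at 4.66, 2.51 and 3.61 in the controls, against 48.2, 46.8 and 35.5 in the knockdowns. Il17re, for the receptor of interleukin 17C, stood at 4.14, 2.51 and 0.903 and at 29.4, 29.8 and 30.6. In both genes knockdown replicate 2 fell in with the other knockdowns, and the mean of knockdown replicates 1 and 3 was 11.7 times and 11.9 times the control mean. Arhgdig encodes a GDP-dissociation inhibitor of small GTPases and stood at 2.07, 0 and 2.71 and at 23.7, 119 and 19.9. It overlaps Rgs11 on the opposite strand, which stood at 5.44, 2.51 and 3.61 and at 12.4, 21.3 and 9.95, and without a stated strand setting reads of the pair cannot be told apart.

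Adaptors and regulators of small GTPases made up much of the rest of the signalling group. Dock10, for a guanine nucleotide exchange factor of small GTPases, stood at 4.40, 0 and 2.71 in the controls, against 28.8, 0 and 18.5 in the knockdowns, so knockdown replicate 2 lay within the controls. Pik3ap1, for an adaptor of phosphoinositide 3-kinase, stood at 1.04, 0 and 1.81 and at 16.4, 4.25 and 18.5. Card10, for a scaffold on the path to NF-kappa-B, stood at 0.518, 0 and 0.903 and at 20.4, 4.25 and 12.1. Pik3ap1 and Card10 had a single read in knockdown replicate 2. Dusp9, a phosphatase of ERK kinases, stood at 1.29, 0 and 0 and at 11.9, 8.50 and 12.8. Rasgef1b, for a Ras-family exchange factor, stood at 1.29, 0 and 0.903 and at 10.7, 8.50 and 11.4, and Paqr7, for a membrane progestin receptor, at 4.14, 0 and 0 and at 11.9, 12.8 and 14.2. These 3 genes were close to the knockdown limit. Knockdown replicate 2, the only knockdown left free by the choice, exceeded every control in them, as in 35.2% of all genes. It held 2 reads in Dusp9 and Rasgef1b and 3 in Paqr7.

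Secreted, matrix and surface products numbered 8. Chodl, which encodes the membrane lectin chondrolectin, had the highest mean of knockdown replicates 1 and 3 among the 48 genes, while Tmod1 and Tmem37 stood higher in knockdown replicate 2. It stood at 1.29, 0 and 1.81 in the controls, against 52.6, 68.0 and 45.5 in the knockdowns, 47.4-fold higher in the mean of knockdown replicates 1 and 3. Genes tied to bone morphogenetic protein signalling were Gdf6, a ligand, and Kcp, a secreted modulator with chordin-like repeats. Gdf6 stood at 1.55, 2.51 and 0.903 and at 23.2, 8.50 and 14.2, and Kcp at 1.04, 0 and 1.81 and at 15.3, 17.01 and 14.9. Gdf15, a stress-induced cytokine, stood at 1.81, 0 and 4.52 and at 15.3, 12.8 and 16.3. The choice placed knockdown replicates 1 and 3 above all 3 controls in these genes. Knockdown replicate 2 lay above them too, as in 35.2% of all genes, with only 2 reads in Gdf6.

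Other surface and secreted products were less even. Gpnmb, for a glycoprotein of melanosomes and macrophages, stood at 1.81, 0 and 0.903 in the controls, against 13.6, 4.25 and 11.4 in the knockdowns. Prg4, for the joint lubricant lubricin, stood at 3.04, 2.58 and 0 and at 11.97, 9.23 and 10.04. Prg4 lay nearest the knockdown limit, and its exons overlap those of Tpr on the opposite strand, which stood between 1573 and 3259 in every library. Prl2c3, of the proliferin family, was listed at 0 in all 3 controls and at 12.2, 20.5 and 13.4 in the knockdowns. Its 5 near-identical copies together stood at 15.3, 5.01 and 6.32 in the controls, against 25.4, 55.3 and 22.7 in the knockdowns, so the family as a whole was not at 0, and the division of reads among copies was not tested. Cd53, for a tetraspanin of leukocytes, stood at 2.07, 2.51 and 3.61 and at 14.7, 0 and 14.2.

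Cd53 was the only one of the 48 genes in the marker list of another cell type. Of 29 leukocyte markers in the table, 19 were silent in the controls and Cd53 alone met the limits. The pan-leukocyte gene Ptprc was at 0 in the 3 controls and in knockdown replicates 2 and 3 and at 0.565 in knockdown replicate 1, and Tyrobp, Cd3e and Itgax were at 0 in all 6 libraries. The summed level of the 29 markers ran from 187 to 222 in the controls and was 223, 478 and 207 in the knockdowns. Summed epithelial markers, 38 genes, were 383 to 388 in the controls and 432, 1101 and 429 in the knockdowns. Both sums were highest in knockdown replicate 2. The signal summed over all genes was also highest there, at 19471638, against 13115793 to 13655904 in the other libraries. Sums of the neuronal, neuroendocrine, striated muscle and endothelial lists were likewise highest there. Those of developmental factors, germline, mesenchymal, liver and gut, and Polycomb genes were not. The part of the library total in these sums was not tested, so nothing is read from them.

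Enzymes of metabolism numbered 4. Mpped2, a metallophosphodiesterase, stood at 1.29, 0 and 0.903 in the controls, against 24.3, 12.8 and 24.9 in the knockdowns. Nnmt, which methylates nicotinamide, stood at 3.37, 0 and 2.71 and at 14.1, 51.0 and 11.4. Acsl6, a long-chain acyl-CoA synthetase, stood at 0.777, 0 and 0 and at 15.8, 4.25 and 12.1. Knockdown replicate 2 was lowest of the knockdowns in Mpped2 and Acsl6 and highest in Nnmt. Mogat2, a monoacylglycerol acyltransferase, stood at 4.92, 2.51 and 4.53 and at 11.9, 21.3 and 14.2, and at 3.27-fold had the smallest fold of the 43 genes with more than 3 reads over all the controls.

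Cytoskeletal, barrier and chromatin genes numbered 5. Tmod1 encodes tropomodulin 1, which caps the slow-growing ends of actin filaments, and stood at 3.57, 0 and 3.13 in the controls, against 26.2, 253 and 27.8 in the knockdowns. Knockdown replicate 2 was 9.38 times the mean of the others, the highest such ratio of the 48. The exons of Tmod1 overlap Tstd2 on the opposite strand, which stood at 841, 770.4 and 823 and at 799, 565 and 811. The part of Tstd2 reads in the values of Tmod1 was not tested. Mtus2, for a microtubule-associated protein, stood at 2.85, 0 and 2.71 and at 11.3, 17.01 and 12.1.

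A pair of genes in that group is best known from stratified epithelium. Serpinb7, a serine protease inhibitor, stood at 1.81, 0 and 0.903 in the controls, against 20.4, 4.25 and 24.2 in the knockdowns. Sprr1a, a precursor of the cornified envelope that is also induced in injured neurons, stood at 0.518, 0 and 0 and at 12.4, 12.8 and 10.7. The control reads of Sprr1a came to 2 in all, so no fold is given. Hist1h4m, a histone H4 gene, stood at 4.38, 0 and 4.14 and at 14.1, 24.9 and 13.4. The 11 Hist1h4 genes in the table together stood at 56.7, 42.6 and 55.2 and at 70.7, 259 and 89.2, and reads can be split among these near-identical copies.

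Less described genes, 6 in number, reached similar levels. Trp53i11, named as inducible by p53, stood at 3.37, 0 and 2.71 in the controls, against 37.3, 8.50 and 27.0 in the knockdowns. Tmem151b stood at 2.85, 0 and 0 and at 31.1, 11.4 and 22.0, and Spata20 at 3.88, 2.51 and 4.52 and at 18.7, 25.5 and 14.2. Knockdown replicate 2 exceeded the highest control in all 6, as in 35.2% of all genes and 17% of the silent genes not meeting the limits. It held 6 reads in Spata20 and 9 in Baalc. The others were under the floor of 3, with 2 in Trp53i11 and Fam167a, 2.7 in Tmem151b and 1 in Lancl3. Baalc, Lancl3 and Fam167a had means of 12.8, 15.0 and 11.9 over knockdown replicates 1 and 3. Another 4 genes carry predicted or clone names, with means from 17.6 to 36.6, and 3 of them exceeded the highest control in knockdown replicate 2.

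None of the 48 genes encodes a transcription factor of the developmental list. Of 165 such factors in the table, outside the Hox and forkhead families, 107 were silent in the controls and 0 met the limits. The share over all silent genes was 0.796%, which counts also the genes left out by name. In a list this short, a count of 0 does not stand apart from it. In the same list, limma called 3 of 48 tested factors higher, where 3.2% of all genes tested were called higher. The choice left out Hox and forkhead genes and Lbx1 by name, so this count says nothing of those families. Of 46 neuronal markers in the table, 32 were silent and 0 met the limits, a count that does not stand apart from the 0.796% of all silent genes in a list this short. Limma called 2 of the 13 neuronal markers tested higher, against the same 3.2% of all genes. Among 38 neuroendocrine genes 32 were silent, among 51 germline genes 41 and among 48 striated muscle genes 31. Of these 0 met the limits, which likewise does not stand apart from 0.796%. The 12 neuronal and excitable-cell genes among the 48 were thus all outside the marker list. A few neuronal genes that met the limits were left out by name, so the count of 0 neuronal markers says nothing of those genes.

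Family relatives of 25 of the 48 genes, chosen by name, gave another measure outside the choice. Of 57 relatives in the table, 16 were silent in the controls, and 16 of the 25 families had a relative with a control mean of at least 100. Limma called 0 of 36 tested relatives higher and 0 lower (8 and 4 at an unadjusted p under 0.05). Over all genes tested, 3.2% were called higher and 1.78% lower, and 10.8% and 9.70% at an unadjusted p under 0.05, so in so few relatives a count of 0 is near the background. Cacna1c, for the other common L-type channel pore, stood at 162, 200.5 and 145 in the controls, against 561, 217 and 565 in the knockdowns (log2 fold change 1.28, SE 0.42, limma adjusted p = 0.16). Tmod3, the abundant tropomodulin, stood at 2841, 2840 and 2763 and at 2915, 1348 and 2921 (limma adjusted p = 0.56). Tmod3 was thus present in all 6 libraries, and lowest in the one where Tmod1 was highest. Relatives of other members, such as Dock9, Ppfia1 and Il17rd, were also lowest in that library, while Arhgdia and Arhgdib were highest there. Nothing is read from the opposite order of Tmod3 and Tmod1.

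Neighbours on the chromosome gave a measure that the choice did not use. The nearest non-overlapping genes in the table on either side of 47 members were 93 different genes, of which 37 were silent in the controls. None of them was itself among the 48. Of 52 neighbours tested, limma called 3 higher, or 5.77%, and 2 lower, against 3.2% of all genes higher and 1.78% lower. Among those called higher, Epn3 and Irf5 were below 10 in every control. They reached the mean of 10 needed for testing only through their knockdown values, so nothing is read from the share called higher. The median log2 fold change of the neighbours was 0.18, against 0.01 for all genes tested. The same filter decided which neighbours entered this median, so nothing is read from it either. Epn3, for an epsin of endocytosis, lies next to Spata20 and stood at 6.21, 5.01 and 3.61 in the controls, against 35.6, 110.5 and 39.1 in the knockdowns (log2 fold change 3.23, limma adjusted p = 0.0281, higher in 3 of 3).

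Other neighbours that passed lay beside genes of several roles. Irf5, an interferon regulatory factor gene beside Kcp, stood at 3.37, 5.01 and 1.81 in the controls, against 23.7, 25.5 and 21.3 in the knockdowns (limma adjusted p = 0.0220, higher in 3 of 3). Only its 5.01 in control replicate 2 kept Irf5 itself out of the switched-on genes. Prkg2, beside Rasgef1b, stood at 84.4, 82.7 and 90.03 and at 257, 285 and 258 (limma adjusted p = 0.00881). A neighbour called lower was Dgat2. This gene, an acyltransferase that acts after the product of its neighbour Mogat2 in triglyceride synthesis, stood at 683, 742 and 814 and at 201, 132 and 232 (limma adjusted p = 0.0152).

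Promoter sequence was examined with RefSeq windows of 300 bases on GRCm38.p6, 250 before to 50 after the start. A window was at hand for 31 of the 48 genes, or 64.6%, which is under the 80% needed for a statement on the set, so a comparison of CpG content over the set is void. The 44 windows of these genes held from 0 to 63 CpG dinucleotides, where the median over all 32851 windows was 7. Among the 19 genes with a single window and no clone name, the 4 windows richest in CpG, the last pair of them tied, and the 3 poorest are shown, to show how far these promoters differ. Capitals mark CpG dinucleotides, and each window reads 5′ to 3′ on the strand of its gene. The CpG-rich windows were chr5:99252878-99253177 (minus strand, 35 CpG), chr15:78802993-78803292 (minus strand, 34 CpG), chr2:93187298-93187597 (plus strand, 26 CpG) and chr19:41385053-41385352 (minus strand, 26 CpG).
Rasgef1b: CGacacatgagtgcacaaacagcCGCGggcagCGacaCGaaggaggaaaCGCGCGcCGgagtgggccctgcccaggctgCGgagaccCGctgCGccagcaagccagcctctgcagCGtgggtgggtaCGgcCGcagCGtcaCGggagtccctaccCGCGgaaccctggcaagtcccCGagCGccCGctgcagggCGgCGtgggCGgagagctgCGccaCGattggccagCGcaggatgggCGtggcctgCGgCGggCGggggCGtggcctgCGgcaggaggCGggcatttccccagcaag
Card10: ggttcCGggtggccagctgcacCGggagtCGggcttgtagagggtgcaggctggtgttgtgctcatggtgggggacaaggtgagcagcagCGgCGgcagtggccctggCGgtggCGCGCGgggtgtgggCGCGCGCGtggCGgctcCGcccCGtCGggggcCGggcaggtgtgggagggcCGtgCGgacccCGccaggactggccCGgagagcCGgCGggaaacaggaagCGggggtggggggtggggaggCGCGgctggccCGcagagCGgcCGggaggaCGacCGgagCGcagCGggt
Trp53i11: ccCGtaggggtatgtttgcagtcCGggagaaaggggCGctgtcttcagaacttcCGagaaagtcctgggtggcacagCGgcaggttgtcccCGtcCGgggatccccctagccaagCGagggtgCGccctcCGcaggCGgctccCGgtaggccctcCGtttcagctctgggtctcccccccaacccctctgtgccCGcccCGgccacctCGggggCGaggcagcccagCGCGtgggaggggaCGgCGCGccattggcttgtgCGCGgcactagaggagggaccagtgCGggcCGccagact
Pik3ap1: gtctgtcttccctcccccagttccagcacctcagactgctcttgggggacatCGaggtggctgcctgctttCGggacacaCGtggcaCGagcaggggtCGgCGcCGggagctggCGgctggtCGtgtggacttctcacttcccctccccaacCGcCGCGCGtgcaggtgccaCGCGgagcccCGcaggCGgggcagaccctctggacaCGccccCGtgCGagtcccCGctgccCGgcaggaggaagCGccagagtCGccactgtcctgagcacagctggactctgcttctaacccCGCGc

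The CpG-poor windows were chr1:107422439-107422738 (plus strand, 0 CpG), chr3:92485832-92486131 (minus strand, 0 CpG) and chr13:12800030-12800329 (minus strand, 2 CpG).
Serpinb7: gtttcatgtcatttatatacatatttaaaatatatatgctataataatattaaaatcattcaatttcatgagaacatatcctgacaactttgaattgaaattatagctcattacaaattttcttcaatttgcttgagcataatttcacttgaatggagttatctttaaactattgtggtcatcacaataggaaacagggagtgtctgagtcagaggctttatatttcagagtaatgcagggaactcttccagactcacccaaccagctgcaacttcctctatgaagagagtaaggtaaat
Sprr1a: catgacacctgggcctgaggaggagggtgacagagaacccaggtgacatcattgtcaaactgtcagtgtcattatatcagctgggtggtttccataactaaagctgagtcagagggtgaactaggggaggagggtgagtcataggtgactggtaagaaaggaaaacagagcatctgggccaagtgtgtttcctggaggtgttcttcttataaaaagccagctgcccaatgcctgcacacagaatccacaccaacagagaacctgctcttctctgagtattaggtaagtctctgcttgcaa
Prl2c3: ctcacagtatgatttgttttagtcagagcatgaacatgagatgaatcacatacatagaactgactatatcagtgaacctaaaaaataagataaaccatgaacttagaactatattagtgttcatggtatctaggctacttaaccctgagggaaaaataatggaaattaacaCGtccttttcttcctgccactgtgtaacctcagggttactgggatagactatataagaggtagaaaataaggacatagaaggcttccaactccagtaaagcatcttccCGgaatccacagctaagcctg

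On either strand, the letters TATAAA were found in the windows of Serpinb7 and Sprr1a and in 13.6% of all windows. The letters GGGCGG were found in 3 of the 4 CpG-rich windows shown (not in that of Pik3ap1), in 0 of the 3 CpG-poor ones, in 11 of the 19 single windows and in 35.7% of all windows. Too few of the switched-on genes had a window for a statement on the set, so nothing is read from these shares. Such a match describes the letters and is not a binding site. The 3 CpG-poor windows belong to genes whose knockdown values spanned 4.25 to 24.2, and the 4 CpG-rich ones to genes between 4.25 and 37.3, so levels overlapped between these few genes.

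The fit over all genes adds little for genes chosen by the same contrast. Of the 48, 20 had a mean of at least 10 over the 6 libraries and were tested, all of them through their knockdown values, since every control was below 5. Limma called 12 higher, where 3.2% of all 12085 genes tested were called higher, and nothing is read from this count. The named genes among the 12 were Chodl, Camk2n1, Prkch, Tmem37, Il17re, Tmem151b, Mpped2, Spata20 and Nrxn2. Without control replicate 1, 2 or 3 or knockdown replicate 1 the count was 0, without knockdown replicate 3 it was 1, and without knockdown replicate 2 it was 13. The authors' deposited table of 323 differential genes holds 28 of the 48, where 1.14% of all genes are listed there as higher. That list comes from the same 6 libraries and the same contrast as the choice, so nothing is read from its overlap either.

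Where the limits fall decides many members. Just inside the knockdown limit were Prg4, Sprr1a, Rasgef1b, Mtus2 and Baalc, whose lower value of knockdown replicates 1 and 3 ran from 10.04 to 11.4. Just outside it, Egln3, Stk32c, Ush1g, Zfp641 and a gene with a clone name all stood at 9.95 in knockdown replicate 3. Just inside the control limit were Mogat2, at 4.92, and Ppfia4, Prkch, Camk2n1 and Gdf15, between 4.52 and 4.66. Just outside were Bcam, Chn1, Coro6, Csf2ra and Cyb561, all at 5.01 in control replicate 2, which is 2 reads. Chn1, for a Rac regulator of axon guidance, stood at 3.11, 5.01 and 0 in the controls, against 37.3, 42.5 and 36.2 in the knockdowns, above most of the 48. Control replicate 2 alone kept out 33 genes, 17 of them at 2 reads there, and 20 of the 33 exceeded the highest control in knockdown replicate 2.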

How the data were processed

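RNA was sequenced from 6 samples, 3 control and 3 knockdown, each counted as a replicate. The submitters' processing notes name RSEM 1.2.12, Bowtie 1.0.0 and the mouse build mm9. Annotation and strand setting: not given in the sources used here. The authors deposited a normalized signal (median-normalized, per the file names; the values behave as estimated read counts divided by a factor per library) for 20325 genes. They also deposited a table of 323 differential genes, with a linear fold (ratio) of knockdown over control made by the authors, per the file headers; how the list was tested is not given.

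The value of 1 read was taken as the most frequent value among the lowest 30% of each library's positive values. Over the 48 genes, 38 gave whole reads (within 0.1) in all 6 libraries; the rest, such as Tmod1 and Prg4, hold divided reads, and no count test was run. Genes with a mean of at least 10 were tested on log2(signal + 1) with limma 3.58.1 in R 4.3.3 (trend and robust options, two-sided, Benjamini-Hochberg adjusted p of 0.05), after a test on simulated data; log2 fold changes on this scale understate low genes. With 3 against 3, no exact permutation p can fall below 0.1. Transcript lengths, overlaps and neighbours came from GENCODE M21 on GRCm38, a newer build than the authors', and promoters from RefSeq (GRCm38.p6). Older symbols were matched through RefSeq synonyms; 1 of the 48 genes was unmatched.

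Members, lists, relatives and roles were chosen with earlier results of these data known. Named genes are Ring1 and Rnf2; the 25 members with the highest mean of knockdown replicates 1 and 3; up to 8 per role; members in a marker list; the 5 genes nearest each limit on either side; up to 5 at 0 in knockdown replicate 2; and members that start within 100 kb of each other. Predicted and clone names were counted, not named. The values of 2 members and of 1 neighbour are counted in the totals but not reported here. Relatives, neighbours, overlapping genes and the remaining members were named after their values were seen. Alternatives changed the pseudocount, the filter on low values, the scaling, the libraries, the replicate block and the limits.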

Additional observations from a re-analysis of the deposited data

How the results depend on the processing

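Over all genes, limma called 387 higher and 215 lower. Total scaling gave 184 and 118, and the fits that left out a library gave 0 to 2855 and 0 to 3136; without knockdown replicate 2 they were 2855 and 3136, without knockdown replicate 1 they were 7 and 21, without knockdown replicate 3 they were 37 and 57, and without control replicate 1, 2 or 3 both were 0 (929, 926 and 891 genes higher and 566, 603 and 584 lower at an unadjusted p under 0.05). Under total scaling the log2 fold change of the median gene went from 0.01 to −0.14. Of the 48 genes, 12 were called higher; the count was 22 with no filter on low values, 0 at a mean of at least 50, where 1 passed at an unadjusted p under 0.05, and 0 to 13 without a library. In the fit with a replicate block, limma called 0 genes higher and 0 lower, and 0 of the 48 (1065, 801 and 20 at an unadjusted p under 0.05). Same-numbered samples deviated together with correlations of 0.17, −0.05 and −0.05, and other pairs with −0.17 to 0.11. With so few libraries, this cannot decide whether the numbers pair the samples.

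The limits gave 48 genes. Controls below 2 gave 15, knockdowns above 20 gave 12 and both together 3, all within the 48 (Chodl, Mpped2 and Serpinb7 in the last); total scaling gave 62, 47 of them shared. Without a library they gave 58 to 87, with 81 without control replicate 2 and 87 without knockdown replicate 3. Knockdown replicate 2 exceeded the highest control in 44 genes, in 44 to 44 without a control and in 41 with total scaling; it was above 10 in 28 and held at least 3 reads in 27. For 19 named genes that could be tested, 59 of 197 refitted log2 fold changes lost the call and 7 gained it; the direction of the members among them was fixed by the choice. The stricter CpG threshold was not run, since the comparison was void. Depth limits most the values of control replicate 2 and knockdown replicate 2.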
